A study of Mus musculus with 4 samples.

Results

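Glucocorticoid and adrenergic stress response genes were read in human immune cells of huNSG-SGM3 mice with and without spinal cord injury (SCI). The set holds 8 of the 33538 human genes in the files: the glucocorticoid receptor gene NR3C1, its regulator FKBP5, the hormone-responsive genes TSC22D3, KLF9, PER1, DDIT4 and SGK1, and the decoy receptor gene IL1R2. The rule names them as known receptors and targets of stress hormones, and they were chosen with earlier results of these data known. They were counted in barcodes with over 50% of their unique molecular identifiers (UMIs, 1 per captured RNA molecule) on human genes. After filters on cell quality, 17021 such cells remained, of 22830 barcodes in all.

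The hosts were immunodeficient mice that carried NOD.Cg-Prkdcscid and IL2rgtm1Wjl together with the transgene Tg(CMV-IL3,CSF2,KITLG)1Eav/MloySzJ, engrafted with human umbilical cord blood stem cells. In this strain the broadly active CMV promoter drives human IL-3, GM-CSF and stem cell factor, and the naïve and sham hosts carried it too. The 4 libraries came from blood of naïve mice with no surgery, blood of sham mice after a T9 laminectomy, blood of mice after a contusive T9 spinal cord injury, and the injured spinal cord of the SCI mice, all labelled with an age of 15 weeks. Sham and SCI tissue was taken 7 days after surgery. Cells were pooled across animals and sorted as live human CD45+ cells, so each condition had 1 library. No p-value could be given, and the 95% intervals below cover counting error only. The SCI libraries pooled hosts of both sexes while the naïve and sham hosts were male, so host sex and injury cannot be told apart. By the paper, mice received buprenorphine and daily gentamycin after surgery, and bladders of SCI mice were emptied by hand each day. Such care and the surgery or injury cannot be told apart. Cord tissue was also digested with warm papain and passed over antibody-coated beads, so tissue and preparation cannot be told apart either.

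As background, cortisol and, in mice, corticosterone reach immune cells from the adrenal gland and bind the glucocorticoid receptor, a transcription factor held in the cytoplasm by chaperones until hormone arrives. The loaded receptor enters the nucleus, turns on genes such as TSC22D3, PER1 and FKBP5, and damps many cytokine genes. FKBP5 in turn lowers the receptor's affinity for hormone, a short feedback loop. Noradrenaline acts on immune cells through adrenergic receptors at the cell surface. Both arms are known for shaping immune depression after spinal injury, and several of the genes also answer to low oxygen, amino acid shortage, cytokines or the handling of tissue.

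In the order naïve, sham, SCI blood and SCI cord, which all lists of 4 values below follow, there were 6324, 4645, 5934 and 118 cells with a median of 3698, 5230, 4655 and 9331 human UMIs each. Lists of 3 values follow the same order without cord. Cells were grouped into classes by clustering without the 8 genes or the related gene lists, and each class was named X-like from marker genes. Only the plasma-like class was nearly limited to 1 library, with 382, 1, 2 and 1 cells. Those cells held 19.6% of the UMIs that naïve levels were scaled to. The share of monocyte-like cells was 2.21%, 1.94% and 0.303% in blood. In all, 56 cells carried a barcode found among all barcodes of another library. Leaving out the barcodes that kept cells of different libraries shared moved no whole-library ratio beyond its counting interval. Although the sort was for human CD45, 1411, 1990, 1230 and 93 barcodes held mostly mouse RNA. PTPRC, the gene of CD45, gave a UMI in 97%, 99.4%, 98.7% and 96.6% of the human cells. The mouse barcodes gauged free human RNA: TSC22D3, the member found in most cells, gave a UMI in 1.13% of them in naïve blood and 3.09% in SCI blood, and IL1R2 gave none in any library. Human cells with a TSC22D3 UMI made up 71% and 81.9% of the same libraries, although mouse barcodes held a median of 15 and 21 human UMIs and the depths are thus far apart.

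Across whole libraries, 2 of the 8 genes stood apart between SCI and sham blood. DDIT4, an inhibitor of mTORC1 induced by glucocorticoids and by energy stress, was 1.92-fold higher in SCI blood. IL1R2 was lower, with a log2 ratio of -2.30. The other 6 differed by less than 1.5-fold. Levels are given as CPM, the count of a gene scaled to a fixed total of human UMIs without ribosomal and mitochondrial genes, and a gene was called past the limit at 1.5-fold with at least 20 UMIs over both libraries. Among all genes with that many UMIs, 5.72% were past the limit higher and 6.93% lower in SCI than in sham blood, so 1 of 8 members each way is a small count.

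**Figure D1:**
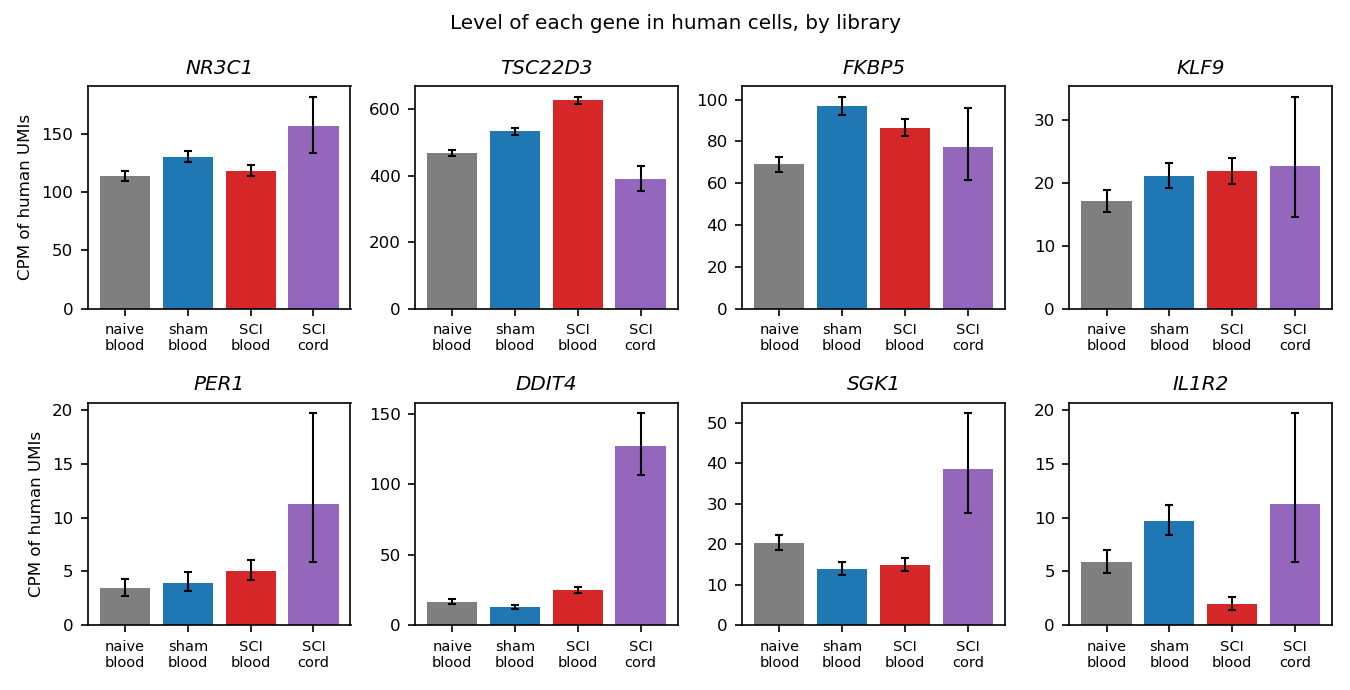
Level of each of the 8 genes in human cells of naïve blood, sham blood, SCI blood and SCI cord, in CPM on a log axis with bars for the 95% counting interval. DDIT4 reads 16.7, 12.9 and 24.7 CPM in the 3 blood libraries and 127 CPM in cord, and IL1R2 reads 5.85, 9.71 and 1.95 CPM in blood.

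Against naïve blood, sham blood had 1 of 8 members past the limit higher and 0 lower, beside 6.67% and 6.08% of all genes. SCI blood had 0 higher and 1 lower, beside 8.69% and 8.57%. SCI cord had 4 higher and 1 lower than SCI blood, beside 22.1% and 17.8%. Their median log2 ratio was 0.20 (sham against naïve), 0.34 (SCI against naïve), 0.08 (SCI against sham) and 0.81 (cord against SCI blood). The medians over all genes were 0.07, 0.07, 0.01 and -0.01 in the same 4 comparisons. Within classes, 6 of 52 pairs of gene and class were past the limit higher and 4 lower in sham against naïve blood, beside 5.12% and 6.88% of all such pairs, and 9 of 53 higher and 4 lower after SCI against naïve blood, beside 6.33% and 8.1%. Summed over the 8 genes, the level was 715, 822, 900.3 and 834 CPM. The naïve library included the plasma-like cells, in which the 8 genes summed to 284 CPM. NR3C1 (39.7 CPM), TSC22D3 (158 CPM) and KLF9 (4.16 CPM) were among those low there, while SGK1 was higher there than in the whole library. Without those cells the sham against naïve median was 0.03, and the SCI against naïve median was 0.12.

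NR3C1, the receptor itself, was read at 114, 130.5, 118 and 156 CPM. The blood libraries thus lay close together. Against naïve blood the log2 ratio was 0.20 after sham surgery and 0.06 after SCI, and SCI against sham blood gave -0.14, none past 1.5-fold. Without plasma-like cells the first 2 became -0.01 and -0.15. A UMI of NR3C1 was found in 30.2%, 39.7% and 31.6% of blood cells, and in 0.0709%, 0.452% and 0.569% of mouse barcodes. After each cell was thinned to 1000 UMIs, the shares were 9.01%, 9.99% and 7.7%.

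Among blood classes the receptor was highest in CD4 T-like cells, at 187, 180 and 171 CPM in naïve, sham and SCI blood. That range lay above the range of every other class and in all 3 libraries its interval lay above those of CD8 T-like cells (125, 127 and 110 CPM) and cytotoxic memory T-like cells (116, 133 and 120 CPM). Of the clusters in the CD4 T-like class, the one led by PDCD1 and GNG4 read 219, 213 and 215 CPM. The one led by CCR10 and CD40LG read 161, 150 and 135 CPM. In sham and SCI blood the interval of this lower cluster overlapped that of cytotoxic memory T-like cells. From CD8 T-like and cytotoxic memory T-like cells down to Treg-like cells (102, 87.1 and 86.3 CPM) neighbouring classes mostly overlapped, so their order is not resolved. Monocyte-like cells read 92.2, 96 and 148 CPM, the last from 26 UMIs in 18 cells with an interval that overlapped that of CD4 T-like cells. Within classes 1 ratio of SCI to sham blood was past the limit, that of monocyte-like cells at 0.65 (-0.07 to 1.28). For SCI against sham blood, B-like cells had a log2 ratio of -0.37 (95% interval -0.61 to -0.14) and CD4 T-like cells -0.08 (-0.20 to 0.04).

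FKBP5, the chaperone-bound immunophilin that restrains the receptor, was read at 69, 97.1, 86.5 and 77.2 CPM. Sham blood was highest and naïve blood lowest. Against naïve blood the log2 ratio was 0.49 after sham surgery and 0.33 after SCI, and SCI against sham blood gave -0.17. The first of these fell short of the 1.5-fold limit and was 0.30 without plasma-like cells.

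FKBP5 was spread unevenly over classes. CD4 T-like cells read 155, 179 and 145 CPM in naïve, sham and SCI blood, while Treg-like cells read 19, 21.6 and 25.6 CPM and B-like cells 23, 20 and 25.9 CPM. Each CD4 T-like library thus lay more than 5-fold above the Treg-like cells of the same library. The pattern held in both clusters that formed the CD4 T-like class, at 140, 161 and 128 CPM in the one led by CCR10 and CD40LG and 173, 198 and 166 CPM in the one led by PDCD1 and GNG4. Cycling cells came next with 98, 124 and 143 CPM. Basophil- or mast-like cells were lowest, with 3, 9 and 5 UMIs of FKBP5 in blood and 0 in 15 cord cells, which allows up to 23 CPM.

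Within classes FKBP5 moved in different directions. In CD4 T-like cells it was higher in sham than in naïve blood (log2 ratio 0.20, 0.07 to 0.33) and lower in SCI than in sham blood (-0.31, -0.44 to -0.18). In cytotoxic memory T-like cells the sham against naïve ratio was past the limit at 0.64 (0.23 to 1.07), from 57.1 to 89.5 CPM. In cycling cells SCI blood was above naïve blood by 0.54 (0.25 to 0.83) on the log2 scale. Whether these classes differed from each other was not tested.

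**Figure D2:**
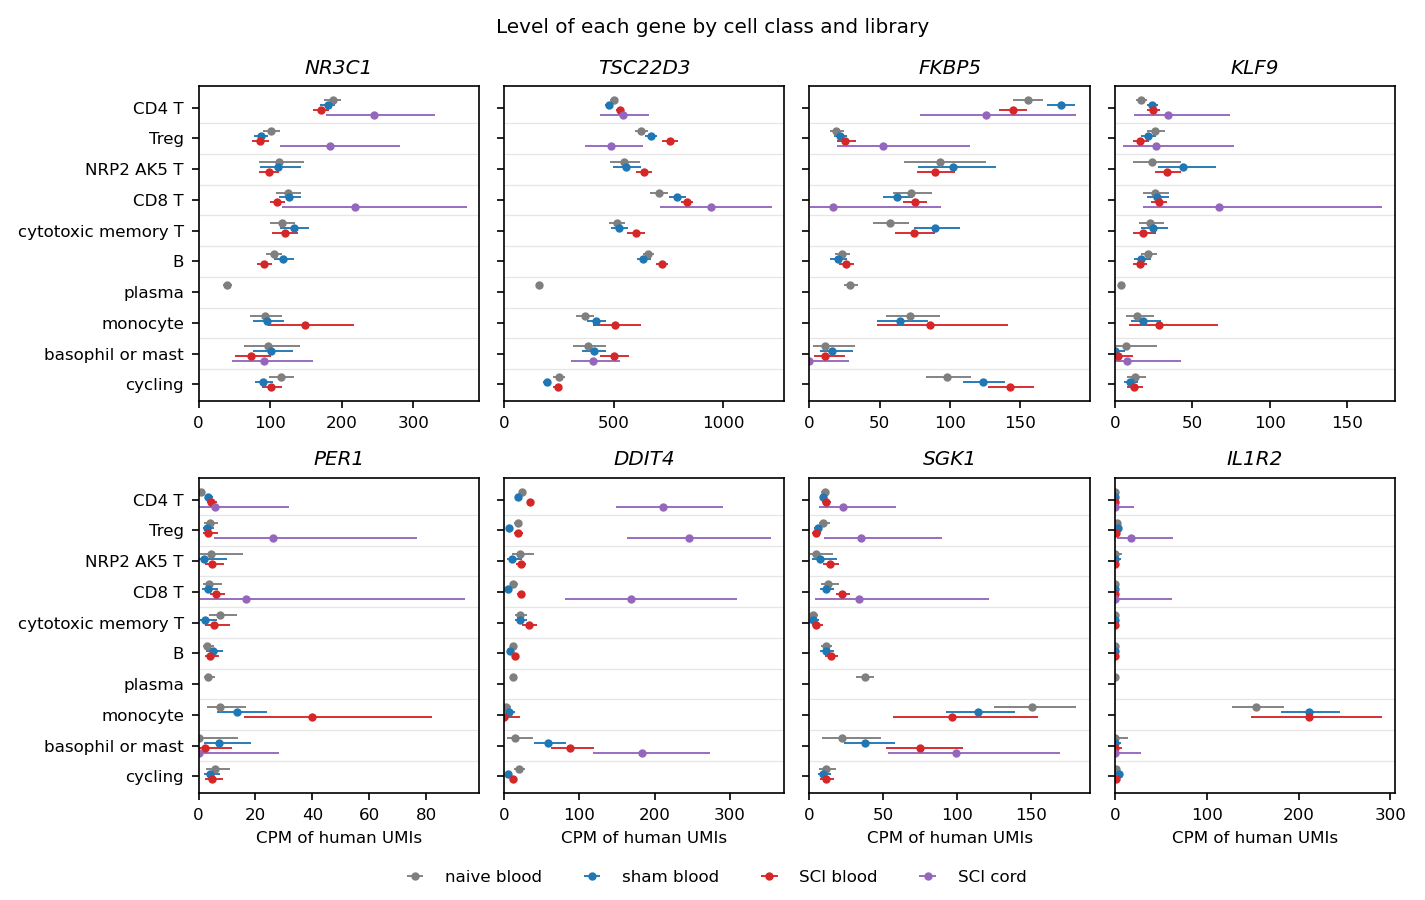
Level of each gene by cell class in naïve, sham and SCI blood, in CPM on a log axis. FKBP5 is high in CD4 T-like cells and low in Treg-like and B-like cells in all 3 libraries, and IL1R2 and SGK1 are highest in monocyte-like cells.

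TSC22D3 encodes GILZ, a leucine zipper protein that carries much of the anti-inflammatory action of glucocorticoids. It was read at 469, 533, 627 and 389 CPM. SCI blood was the highest and cord the lowest. SCI against sham blood gave a log2 ratio of 0.23 (0.20 to 0.27) on the CPM scale and -0.05 by counts per cell, where the median of all genes stood at -0.27. SCI against naïve blood gave 0.42, or 0.20 without plasma-like cells, and sham against naïve blood gave 0.18, or -0.03 without them.

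The classes showed the same small step. In SCI against sham blood the log2 ratio of TSC22D3 was above 0 in 9 of 9 classes on the CPM scale but in 3 of 9 by counts per cell. It lay between 0.07 in CD8 T-like cells and 0.32 in cycling cells, with 7 intervals above 0 and none of the 9 past 1.5-fold. As an example of its size, Treg-like cells read 669 CPM in sham and 758 CPM in SCI blood. CD8 T-like cells had the most, at 707, 791 and 833 CPM in naïve, sham and SCI blood. Treg-like cells (626, 669 and 758 CPM) and B-like cells (659, 636 and 721 CPM) followed and were not resolved from each other. Cycling cells were low, at 250, 196 and 244 CPM, below basophil- or mast-like cells in every library, and the plasma-like cells of naïve blood were lower still at 158 CPM.

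KLF9, a Krüppel-like repressor and a direct target of the receptor, was read at 17, 21.1 and 21.8 CPM in naïve, sham and SCI blood and 22.6 CPM in cord. No whole-library ratio was past the limit, and the log2 ratio of SCI to sham blood was 0.05 on the CPM scale and -0.23 by counts per cell. The T cells led by NRP2 and AK5 gave 23.8, 43.9 and 33.5 CPM and CD8 T-like cells 25.6, 26.9 and 28.3 CPM, while basophil- or mast-like cells gave 2, 0 and 1 UMIs. In CD4 T-like cells KLF9 was 16.9, 24.1 and 24.8 CPM, log2 ratios of 0.51 (0.13 to 0.90) and 0.55 (0.16 to 0.96) against naïve blood. In Treg-like cells the value went the other way, from 26 CPM in naïve to 16.2 CPM in SCI blood, a log2 ratio of -0.67 (-1.28 to -0.10) that was past the limit.

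PER1 links the hormone to the cell clock, being both a core clock repressor and an early glucocorticoid target. It was rare in blood, with 76, 81 and 109 UMIs in naïve, sham and SCI blood and 12 in cord, or 3.45, 3.95, 5.06 and 11.3 CPM. No blood ratio was past the limit. Monocyte-like cells had the most, at 7.69, 13.4 and 39.9 CPM, from 6, 11 and 7 UMIs. In CD4 T-like cells 5, 23 and 25 UMIs were counted, which gave log2 ratios of 1.72 (0.40 to 3.57) and 2.11 (0.81 to 3.96) against naïve blood. Only the naïve value stood low, and SCI and sham blood did not differ beyond counting error (0.39, -0.48 to 1.28).

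DDIT4, also called REDD1, was read at 16.7, 12.9, 24.7 and 127 CPM, from 368, 264, 532 and 135 UMIs. SCI blood stood above both other blood libraries, and sham blood was the lowest. The log2 ratio of SCI to sham blood was 0.94 (0.72 to 1.16) on the CPM scale and 0.66 by counts per cell. The value was higher than that of 97.8% of all genes in the comparison. SCI against naïve blood gave 0.56 (0.37 to 0.76), just under the limit, and sham against naïve blood gave -0.37 (-0.61 to -0.14). A UMI was found in 4.95%, 4.67% and 7.2% of blood cells and in 0.142%, 0.101% and 0.244% of mouse barcodes. After thinning to 1000 UMIs the shares were 1.08%, 1.21% and 1.75%, and the log2 ratio of SCI to sham blood was 0.56. No UMI was assigned to the antisense gene DDIT4-AS1.

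The higher DDIT4 in SCI than in sham blood was read across cell classes. With enough UMIs for 8 classes, the log2 ratio was past the limit higher in 8 of 8, or in 5 of 8 by counts per cell. At each of 6 other settings of the clustering or cell filters it was 7 of 8. Over all 8 genes, 14 of 54 pairs of gene and class were past the limit higher and 0 lower, beside 6.78% and 6.47% of all pairs. DDIT4 itself gave 8 of these 14 pairs, SGK1 3, and NR3C1, KLF9 and PER1 1 each. In the 8 classes with enough DDIT4 UMIs, 4.38% (CD4 T-like) to 10.5% (basophil- or mast-like) of genes were past the limit higher. In monocyte-like cells, with too few DDIT4 UMIs, the share was 16.6%. CD8 T-like cells went from 5.2 CPM in sham to 22 CPM in SCI blood, a log2 ratio of 2.03 (1.18 to 3.14). Treg-like cells went from 6.57 to 18.8 CPM (1.5, 0.77 to 2.30) and CD4 T-like cells from 18.4 to 34.8 CPM (0.91, 0.58 to 1.25). Cycling cells were the fourth class whose interval lay above 0 (1.12, 0.11 to 2.28). In the other 4 classes the ratio was between 0.59 and 0.90 with intervals that reached below 0. In basophil- or mast-like cells of SCI blood, 16 of the 41 UMIs came from 1 cell.

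In 3 of these classes the sham library stood low. DDIT4 was lower in sham than in naïve blood in Treg-like cells (17.9 to 6.57 CPM), CD8 T-like cells (12.2 to 5.2 CPM) and cycling cells (19.7 to 5.34 CPM). SCI against naïve blood gave 0.07 (-0.55 to 0.68) in Treg-like cells. In CD8 T-like cells SCI blood stood above naïve blood by 0.83 (0.13 to 1.65) and in CD4 T-like cells by 0.56 (0.23 to 0.90). Basophil- or mast-like cells differed from these, with 4, 32 and 41 UMIs in naïve, sham and SCI blood, or 14.9, 57.9 and 87.7 CPM. Monocyte-like cells held 2, 5 and 0 UMIs of DDIT4.

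**Figure D3:**
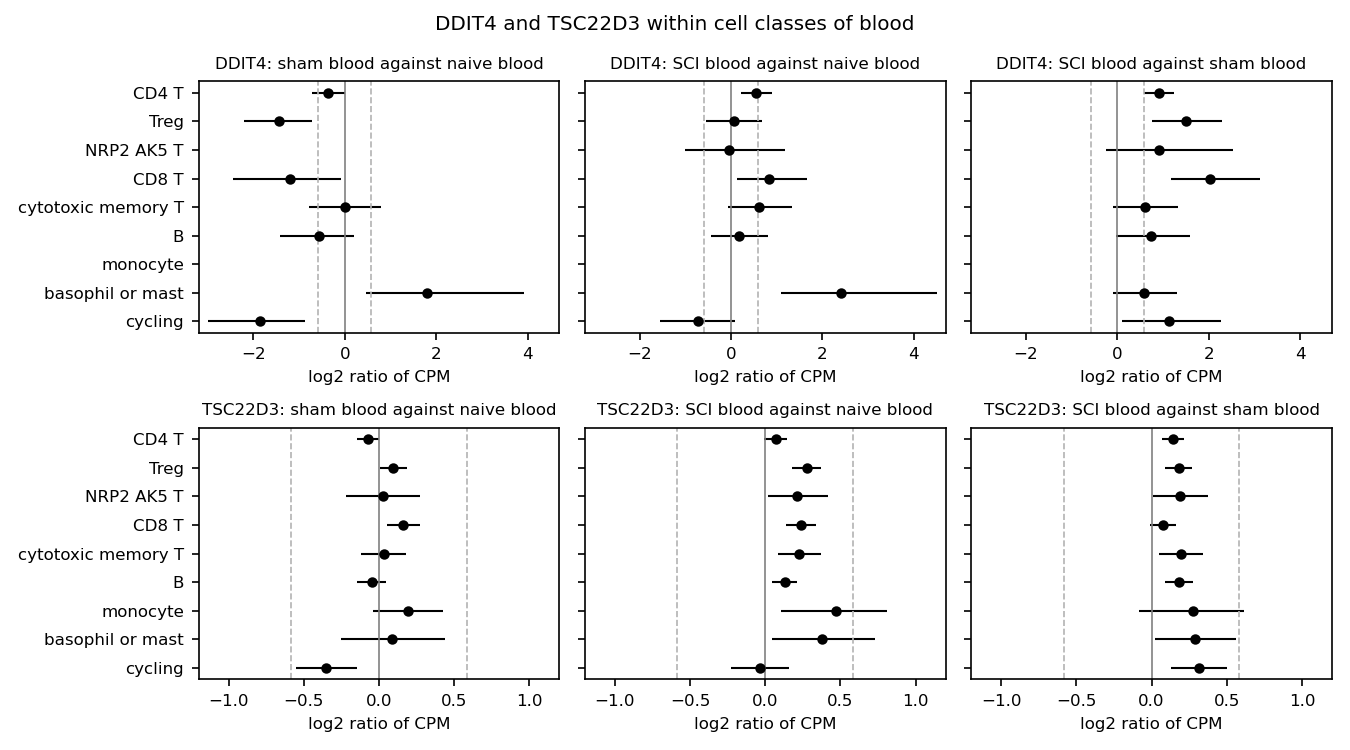
Log2 ratio of SCI to sham blood within each cell class for DDIT4 and TSC22D3, with 95% counting intervals and a line at the 1.5-fold limit of 0.58. DDIT4 lies past the limit in 8 of 8 classes as plotted (7 of 8 at 6 other settings and 5 of 8 by counts per cell), with 4 intervals above 0, and TSC22D3 lies above 0 in 9 of 9 classes with none past the limit.

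SGK1, a kinase that regulates ion transport and cell survival and was named for its response to serum and glucocorticoids, was read at 20.4, 13.8, 14.9 and 38.6 CPM. Naïve blood was the highest blood library. The log2 ratio was -0.56 for sham and -0.45 for SCI against naïve blood, but -0.23 and -0.11 without plasma-like cells, which held 162 of the 449 naïve UMIs of SGK1. SCI against sham blood gave 0.11 (-0.12 to 0.35), or -0.17 by counts per cell.

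SGK1 was foremost a gene of monocyte-like cells, at 151, 114 and 96.9 CPM in naïve, sham and SCI blood. Basophil- or mast-like cells read 22.3, 38 and 74.8 CPM, the plasma-like cells of naïve blood 37.4 CPM, and all T-like and B-like classes of blood stayed at or below 22.3 CPM. SCI against sham blood was past the limit in CD8 T-like cells (11.3 to 22.3 CPM, log2 ratio 0.95, 0.31 to 1.69), in basophil- or mast-like cells (0.97, 0.16 to 1.83) and in the T cells led by NRP2 and AK5 (0.75, -0.63 to 2.87, from 4 and 26 UMIs). Monocyte-like cells gave -0.20 (-1.08 to 0.52). With monocyte-like, basophil- or mast-like and eosinophil-like cells left out, the SCI to sham ratio was 0.60 and past the limit. Fewer cells of a class and less RNA per cell cannot be told apart in such whole-library sums.

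IL1R2 is a decoy receptor that binds interleukin-1 without signalling and is induced by glucocorticoids in myeloid cells. It was read at 5.85, 9.71, 1.95 and 11.3 CPM, from 129, 199, 42 and 12 UMIs. SCI blood was thus the lowest, with log2 ratios of -2.30 (-2.83 to -1.83) against sham and -1.57 (-2.12 to -1.07) against naïve blood. Sham blood stood above naïve blood by 0.73 (0.40 to 1.06), which became 0.41 without plasma-like cells.

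The class values looked different. Monocyte-like cells held 120, 174 and 37 of these UMIs, or 154, 211 and 211 CPM in naïve, sham and SCI blood. Within them SCI and sham blood gave a log2 ratio of 0.01 (-0.56 to 0.52). The number of monocyte-like cells was 140, 90 and 18. With equal weights for all classes, the SCI to sham log2 ratio was -0.03 in place of -2.30. A UMI was found in 36.4%, 55.6% and 50% of monocyte-like cells and in 0 of all CD8 T-like, cytotoxic memory T-like and basophil- or mast-like blood cells. The 0 in CD8 T-like cells of SCI blood allows up to 0.726 CPM. Treg-like cells were the exception among lymphocytes, with 7, 12 and 3 UMIs, against 0, 1 and 0 in CD4 T-like cells. Cycling cells held 2, 11 and 2.

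**Figure D4:**
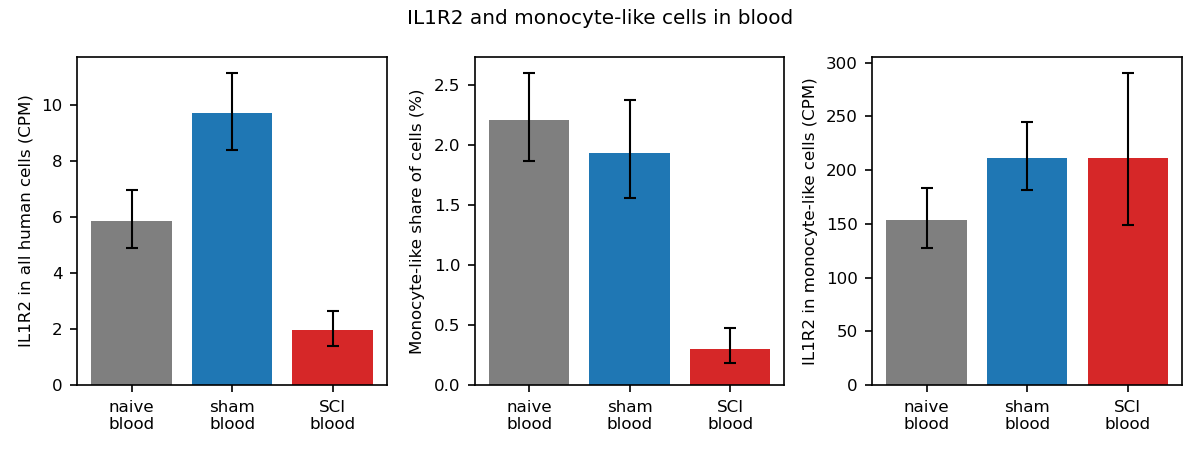
IL1R2 in whole blood libraries and in monocyte-like cells, in CPM with 95% counting intervals, beside the share of monocyte-like cells in each library. The whole-library level is lowest in SCI blood at 1.95 CPM, the level within monocyte-like cells is 211 CPM in both sham and SCI blood, and the share is 1.94% and 0.303%.

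The injured cord gave the widest differences, on 118 cells. Against SCI blood, DDIT4 had a log2 ratio of 2.37 (2.08 to 2.64), or 5.17-fold. IL1R2 had 2.58 (1.47 to 3.49), SGK1 1.39 (0.86 to 1.84) and PER1 1.21 (0.16 to 2.02). TSC22D3 was past the limit lower on the CPM scale at -0.69 (-0.83 to -0.55), but 0.62 by counts per cell, under which the median of all genes was 1.30. The classes in cord also differed in share, with basophil- or mast-like cells at 12.7%, eosinophil-like cells at 11% and monocyte-like cells at 5.93% of cells.

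DDIT4 was higher in cord within each class that could be compared. CD4 T-like cells read 34.8 CPM in SCI blood and 211 CPM in cord (log2 ratio 2.62, 2.05 to 3.11). Treg-like cells read 18.8 and 245 CPM (3.71, 2.97 to 4.42), and CD8 T-like cells 22 and 168 CPM (3.00, 1.83 to 3.88). Basophil- or mast-like cells gave 87.7 and 184 CPM (1.08, 0.28 to 1.83). The UMIs were spread over cells: 17 of 30 CD4 T-like, 8 of 15 Treg-like and 8 of 15 basophil- or mast-like cord cells held DDIT4. By contrast, 1 cycling cell held 16 of the 135 UMIs. None of the 13 eosinophil-like cord cells held a DDIT4 UMI, which allows up to 23.7 CPM (3 counts of the total), although each of them held TSC22D3.

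Other members were less uniform in the cord. NR3C1 was higher than in SCI blood within Treg-like cells (86.3 and 184 CPM, log2 ratio 1.12, 0.37 to 1.74) and CD8 T-like cells (110 and 219 CPM, 1.05, 0.07 to 1.78), and by 0.54 (0.05 to 0.96) in CD4 T-like cells. TSC22D3 was lower in Treg-like cells (758 and 490 CPM, -0.62, -1.04 to -0.24), where counts per cell gave 0.61, and gave 0.04 in CD4 T-like and 0.19 in CD8 T-like cells. Of the 12 IL1R2 UMIs, 6 came from 3 of 7 monocyte-like cells, 4 from 1 B-like cell and 2 from 1 Treg-like cell. The 41 SGK1 UMIs were mostly in basophil- or mast-like cells (13), monocyte-like cells (9) and eosinophil-like cells (6). Over the 23 gene and class pairs with enough UMIs, 13 were past the limit higher and 2 lower, beside 26.4% and 19.5% of all genes and classes.

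Genes known to answer to tissue handling were also higher in cord, where tissue and preparation cannot be told apart. A list of 14 genes known to answer to tissue dissociation, among them FOS, EGR1 and heat shock genes, summed to 4198, 4898 and 4778 CPM in naïve, sham and SCI blood and to 8106 CPM in cord. In cord 9 of its 14 genes were past the limit higher and 0 lower, beside 22.1% and 17.8% of all genes. FOS, an immediate early transcription factor gene, read 58.9, 85.1, 124 and 1357 CPM in the 4 libraries. The list was also higher in cord within CD4 T-like cells (4492 and 7913 CPM) and CD8 T-like cells (4387 and 9583 CPM). Its part in the cord values of DDIT4, PER1 and SGK1 was not tested. Between SCI and sham blood 0 of the 14 genes were past the limit either way, beside 5.72% higher and 6.93% lower of all genes. In SCI against naïve blood 5 were higher and 1 lower, beside 8.69% and 8.57%. In sham against naïve blood 1 was higher and 1 lower, beside 6.67% and 6.08%.

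**Figure D5:**
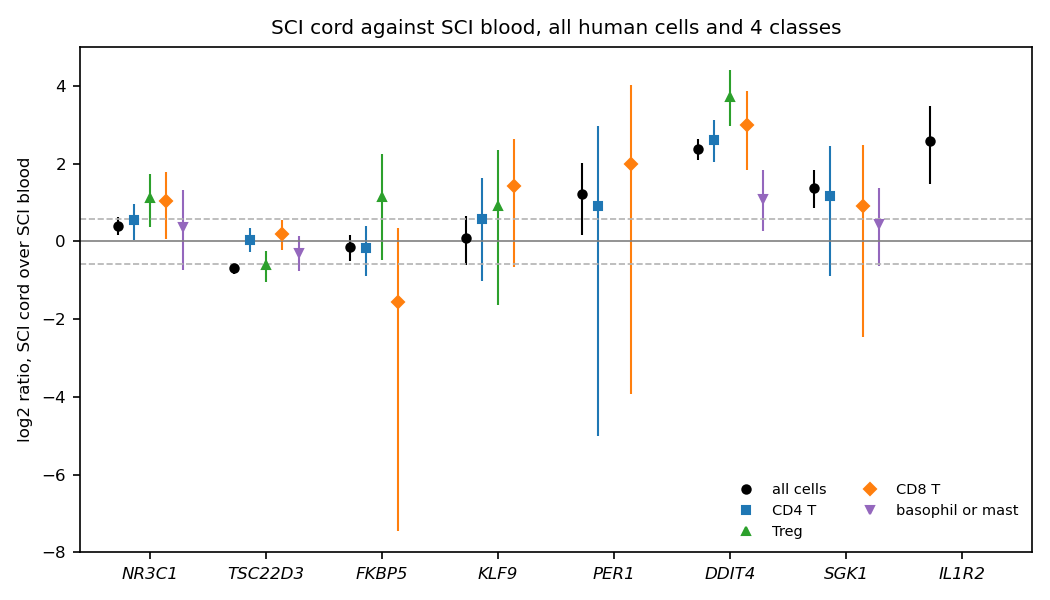
Log2 ratio of SCI cord to SCI blood for each of the 8 genes in whole libraries and within the 4 classes with at least 10 cells in both, with 95% counting intervals. The interval of DDIT4 lies above 0 in each class, that of NR3C1 lies above 0 in the 3 T-like classes, and that of TSC22D3 lies below 0 in Treg-like cells.

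Among the receptors of the adrenergic arm, ADRB3, better known from fat cells, had 26, 26 and 8 of its 26, 27 and 8 UMIs of naïve, sham and SCI blood in monocyte-like cells. ADRB1 was read in CD8 T-like cells at 5.12, 6.61 and 9.68 CPM and in monocyte-like cells at 10.2, 6.07 and 11.4 CPM, the latter from 8, 5 and 2 UMIs. In B-like cells it had 8, 11 and 0 UMIs.

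RNA of genes for proteins that the glucocorticoid receptor works with differed by less than 1.5-fold between the blood libraries, where UMIs were enough. Of 17 genes for chaperones, coactivators, corepressors and hormone-converting enzymes, 15 had enough UMIs, and 0 were past the limit either way in each of the 3 blood comparisons, where 5.72% to 8.69% of all genes were in each direction. HSPA8, a chaperone of the receptor complex, read 1248, 1667 and 1800.03 CPM in blood. NCOA3, a coactivator, read 170, 124 and 130 CPM. HSD11B1, which regenerates active hormone from its inert form, had 137, 134 and 157 UMIs, of which 101, 111 and 103 lay in CD4 T-like cells. HSD11B2, which inactivates the hormone, had 0, 2 and 1 UMIs.

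Other genes known to be induced by glucocorticoids were measured as a list of 28. In SCI against naïve blood 9 of the 25 with enough UMIs were past the limit higher and 2 lower, beside 8.69% and 8.57% of all genes, with a median log2 ratio of 0.46 beside 0.07. The naïve total included the plasma-like cells, whose part in these counts was not tested. In SCI against sham blood 3 of 26 were higher and 2 lower, beside 5.72% and 6.93% of all genes, with a median of 0.09 beside 0.01. IL7R, the receptor for a T cell survival cytokine, read 366, 566 and 746 CPM. CXCR4, a homing receptor, read 97.1, 94.2 and 155 CPM, and was past the limit in SCI against sham blood at 0.72 (0.64 to 0.80). PIK3IP1, a brake on PI3-kinase, read 70.3 CPM in naïve and 130 in SCI blood. The list did not go one way: BCL2L11, the pro-apoptotic gene BIM, was lower in SCI than in naïve blood (69.4 and 43.2 CPM), and ZFP36, which destabilises cytokine mRNA, read 156, 118 and 123 CPM.

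Of 12 cytokine and adhesion genes that glucocorticoids repress, 3 were past the limit higher and 4 lower in SCI against sham blood, beside 5.72% and 6.93% of all genes. In SCI against naïve blood 5 of 11 were higher and 5 lower, beside 8.69% and 8.57%. IL1B, the ligand that IL1R2 captures, had 120, 123 and 7 UMIs in the 3 blood libraries. This low count in SCI blood stood beside the low share of monocyte-like cells, whose part in it was not tested. CCL5, a chemokine of cytotoxic cells, read 314, 298 and 538 CPM, beside CD8 T-like shares of 10.2%, 13% and 23.9%. IFNG read 3.04, 4.15 and 6.59 CPM. In cord 10 of the 12 were past the limit higher and 1 lower, beside 22.1% and 17.8% of all genes. CXCL8 led at 88.6 CPM against 0.325 in SCI blood. Monocyte-like cells were 5.93% of cord and 0.303% of SCI blood cells, and eosinophil-like cells 11% and 0.101%. The part of this cell mix in the cord values was not tested.

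Of 10 genes induced by cyclic AMP, 8 had enough UMIs in cord against SCI blood. Past the limit were 7 higher and 1 lower, beside 22.1% and 17.8% of all genes, with a median log2 ratio of 3.93. The part of the cell mix in these values was not tested. NR4A2, an orphan nuclear receptor gene and an immediate early gene, read 2.09, 3.37, 4.32 and 152 CPM in naïve, sham and SCI blood and cord. RGS2, a brake on G protein signalling, read 15 CPM in SCI blood and 173 in cord. CREM, a cyclic AMP-responsive repressor, read 32.1, 32.4 and 32.2 CPM in the 3 blood libraries, a near constant level, and 108 CPM in cord. Among 23 receptor kinases, adenylyl cyclases, phosphodiesterases and other transducers, 2 were past the limit higher and 1 lower in SCI against sham blood, beside 5.72% and 6.93% of all genes. PDE3B, which breaks down cyclic AMP, read 88.2, 129 and 149 CPM.

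The genes with the most similar pattern over 27 class and library sums of blood differed from member to member. Likeness was Pearson's r of log2 levels among 6899 genes, given as a description because sums share libraries and depth. For KLF9 it was highest with FOXO1 (0.94), TECPR1 (0.90) and MPP7 (0.89). IL1R2 followed the monocyte genes MRC1 (0.96), FCN1 (0.95) and S100A12 (0.95), and SGK1 followed SLC44A1 (0.93) and FTL (0.85). TSC22D3 was nearest to KMT5B (0.93) and FKBP5 to TCEA3 (0.84), and NR3C1 to ATXN2 (0.85). DDIT4 had no close partner, its best value being 0.73 with BORCS6. NR3C1 and TSC22D3, the receptor and its target, gave 0.41.

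The mouse orthologs were read in the host barcodes of the same libraries, in CPM of mouse UMIs without ribosomal, mitochondrial and haemoglobin genes. Host barcodes differed in kind: haemoglobin took 87.3%, 23% and 32.6% of mouse UMIs in blood, the neutrophil gene S100a8 was high in sham and SCI blood (38626 and 44507 CPM), and the microglial and macrophage gene Cx3cr1 was high in cord (1174 CPM). Between SCI and sham blood, Tsc22d3 read 1125 and 924 CPM (log2 ratio 0.28, 0.21 to 0.36), Fkbp5 59.9 and 40.8 CPM (0.56, 0.19 to 0.91) and Il1r2 280 and 175 CPM (0.68, 0.51 to 0.84). The median of all mouse genes was -0.19. Host Ddit4 read 36.1 and 34.8 CPM there, a log2 ratio of 0.06 (-0.38 to 0.48), where human DDIT4 gave 0.94. In cord against SCI blood host Ddit4 read 3.92 and 36.1 CPM, a direction opposite to that of human DDIT4, and Sgk1 read 442 and 146 CPM, but these are different host cell types.

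Sequence was at hand for mouse promoters only, from RefSeq on GRCm38.p6, each 300 bases long from 250 bases before the start site. A glucocorticoid response element was searched on both strands as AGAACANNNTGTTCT, and it was found in 3 of 32851 promoters (0.00913%), of which 1 belonged to Sgk1. The shorter motif AGAACA, which the full element contains once on each strand, was in 19% of promoters, and the E-box CACGTG, a site of clock factors, in 7.15%. The windows below are shown because they hold the full element of Sgk1, the shorter motif of Tsc22d3 (on the other strand) and the E-box of Per1, each in capitals and read 5′ to 3′ on the strand of the gene.
Sgk1, chr10:21993694-21993723, plus strand: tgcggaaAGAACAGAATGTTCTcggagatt
Tsc22d3, chrX:140600690-140600719, minus strand: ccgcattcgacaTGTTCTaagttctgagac
Per1, chr11:69098771-69098800, plus strand: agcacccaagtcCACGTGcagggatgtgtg
The Sgk1 element begins 189 bases before its start site and lies in 1 of 6 promoters listed for that gene. The match of Tsc22d3 lies in 1 of 3 promoters, and the E-box of Per1 in 1 of 2. The 1 promoter listed for Ddit4 held none of the searched motifs. A match gives the letters only and is not a measured binding site.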

How the data were processed

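Human and mouse cells were sequenced with 10x Genomics 3′ chemistry (version 3) in 1 run. The authors made the deposited UMI counts with Cell Ranger, named in the submitters' processing notes without a version, against a combined reference of GRCh38 and mm10 (33538 human and 31053 mouse genes). Values start from these deposited filtered counts. A UMI counter with 3′ capture reads the end of a transcript, so levels were compared between libraries and classes, not between genes.

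Barcodes with over 50% human UMIs were removed if UMIs or genes lay over 3 median absolute deviations below the median. Those over 3 such deviations above the median in mitochondrial or ribosomal share were removed too. Scrublet's top scores were marked as doublets at 0.8% per 1000 barcodes, and those with over 3000 genes were removed. Cells were clustered with scanpy 1.11.5 (2000 variable genes, 30 components, 15 neighbours, Leiden resolution 0.8, centring within library) without the members and list genes. Counts were summed per class and library in Python 3.11.15 with numpy 2.4.6, pandas 2.3.3 and scipy 1.17.1. Ratios used 0.5 added counts and exact conditional binomial intervals, and classes needed at least 10 cells in both libraries. TMM factors came from edgeR 4.0.16 in R 4.3.3, as an alternative scaling only. The ratio and its interval were tested on simulated counts. With 1 library per condition no test was run.

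The members and lists were chosen with earlier results of these data known, the circadian clock list after the data were seen. Named genes were the members, the 3 most alike genes per member, and per list and comparison the 2 highest and 2 lowest log2 ratios with at least 100 counts. The adrenergic receptors named had at least 20 counts. Some genes that these rules cover are not reported here. HSD11B2 and the sums by class were given outside this rule and were chosen after their values were seen. Human genome, promoter and protein sequences were not used here.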

Additional observations from a re-analysis of the deposited data

Results flagged for a closer look

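DDIT4 was lower in sham than in naïve blood in Treg-like cells (log2 ratio -1.43), CD8 T-like cells (-1.2) and cycling cells (-1.85), and higher in basophil- or mast-like cells (1.81). The values point in opposite directions with intervals that exclude 0, and the difference between classes was not tested because each condition had 1 library. The basophil- or mast-like value rested on 4 UMIs in naïve and 32 in sham blood.

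SGK1 was lower in SCI than in naïve blood in Treg-like cells (-1.11) and higher in CD8 T-like cells (0.77) and in basophil- or mast-like cells (1.65). This difference was not tested either.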

How the results depend on the processing

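No paired analysis was possible because each condition had 1 library. The limits are the single library per condition, the 118 cord cells and the rare genes, PER1 with at most 109 UMIs per library. The alternatives without plasma-like cells and without myeloid-like cells were chosen after seeing the data. The cause was not tested where a value changed, beyond what the setting itself alters.

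Of the members past 1.5-fold, sham against naïve blood had 1 higher and 0 lower in the values reported. Higher became 3 by counts per cell and 0 with equal class weights, with a 2-fold limit or without plasma-like cells, and lower became 1 (SGK1) with TMM factors, without immunoglobulin genes in the total and without myeloid-like cells. SCI against naïve blood had 0 higher and 1 lower. Higher became 2 by counts per cell, by the mean of single-cell CPM and with equal class weights, and 1 (DDIT4) after thinning and with all marked doublets removed, and lower became 0 with equal class weights and without myeloid-like cells. SCI against sham blood had 1 each way. Higher became 2 with equal class weights and without myeloid-like cells and 0 with a 2-fold limit, and lower became 0 with equal class weights. In cord against SCI blood 4 were higher and 1 lower. Higher became 8 by counts per cell and 2 after thinning, and lower became 2 after thinning and 0 by counts per cell, by the mean of single-cell CPM, with equal class weights, with ribosomal and mitochondrial genes in the total and with a 2-fold limit.

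By counts per cell the median of all genes shifted by 0.41, 0.13, -0.27 and 1.30 in the 4 comparisons. The gene and class pairs past the limit then became 26 higher in sham against naïve blood (6 as reported), 22 higher and 1 lower in SCI against naïve blood (9 and 4), 9 higher and 5 lower in SCI against sham blood (14 and 0), and 21 higher and 0 lower in cord (13 and 2). DDIT4 was past the limit in 5 of 8 classes and TSC22D3 above 0 in 3 of 9. TSC22D3 in cord reversed to 0.62 in whole libraries and 0.61 in Treg-like cells, and SGK1 in monocyte-like cells of SCI against naïve blood reversed to 0.20. With equal class weights IL1R2 in SCI against naïve blood reversed to 0.43. Pairs lower in SCI against sham blood became 1 with Leiden resolution 0.4, without centring or with all marked doublets removed, and 2 with resolution 1.5. The DDIT4 ratio of SCI to sham blood lay between 0.56 and 0.98 over its alternatives. The class with the highest level stayed the same at most settings. The exceptions were NR3C1, TSC22D3 and DDIT4, highest in an NK-like cluster that formed with resolution 1.5, and NR3C1 and KLF9, highest in an unnamed cluster without the MAD filter.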

Other observations

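Circadian clock genes, a list of 15 added after the data were seen, summed to 330.4, 417 and 366 CPM in naïve, sham and SCI blood and 369 CPM in cord. Of the 14 with enough UMIs, 2 were past the 1.5-fold limit higher and 1 lower in SCI against naïve blood, beside 8.69% and 8.57% of all genes. In SCI against sham blood 0 were higher and 1 lower, beside 5.72% and 6.93%. The lower gene against naïve blood was BHLHE41, a clock repressor, with 203, 40 and 41 UMIs in the 3 blood libraries. RORA, a clock activator that also shapes T cells, read 132, 186 and 144 CPM. In cord BHLHE40 read 113 CPM against 29.7 in SCI blood, and the clock repressor CRY1 read 9.42 against 29.1 CPM.

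Hypoxia and energy stress are among the settings in which DDIT4 is known to be induced. A list of 16 such genes summed to 1193, 1276, 1233 and 1210 CPM in the 4 libraries. The part of these settings in the DDIT4 values was not tested. Of 14 with enough UMIs, 0 were past the limit higher and 3 lower in SCI against sham blood, beside 5.72% and 6.93% of all genes. TRIB3, a stress kinase-like gene, read 15.5, 16.9 and 11 CPM in naïve, sham and SCI blood. SESN2, another inhibitor of mTORC1, read 5.66 CPM in sham and 8.35 in SCI blood. In cord 4 of 13 were past the limit higher and 2 lower, near the 22.1% and 17.8% of all genes. Among them was NDRG1, a gene induced by low oxygen, at 112 CPM against 53.2 in SCI blood, and BNIP3, a gene of mitochondrial turnover, at 20.7 against 47.7.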
